A study of Mus musculus with 13 samples.

Results

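The mitochondrial respiratory chain is built from subunits of complexes I to IV, most of them encoded in the nucleus. A set of 36 such nuclear genes was followed across tumours of the 4T1 mouse mammary carcinoma line. The genes were chosen by symbol, and each was taken at the array feature that carries its symbol. All 36 were measured, each by 1 feature, out of 22206 features tested. They comprised 18 genes of complex I, 4 of complex II, 5 of complex III and 9 of complex IV. Ndufa4, named for complex I, was counted with complex IV, of which its product is now taken to be a subunit. None of the 36 belongs to complex V, the ATP synthase, whose 18 measured genes were kept as a list of their own.

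Clariom S arrays had been hybridised with total RNA from 4T1 tumours, 12 arrays in all. Tumours had grown in a mammary fat pad of BALB/c mice that were either WT or Nlrx1-/-. The injected cells were parental 4T1, which had not been transduced, the transduced line 4T1OE, which overexpresses NLRX1, or 4T1OE-CTL, the control line transduced alongside it. With 2 hosts and 3 lines there were 6 groups of 2 arrays, and every array held pooled RNA. NLRX1 is a NOD-like receptor family member found in mitochondria. The host deletion does not reach the injected cells, and RNA of host and tumour cells is measured together. The label of Nlrx1-/- parental replicate 1 carries the array service's advice to leave it out after a principal component analysis. It is shown with the levels but was left out of the fits, which used 11 arrays, so 1 Nlrx1-/- parental array stood for its group and was assumed to vary like the others. No label says whether pools shared animals, so p-values measure the spread between pools, which may be technical.

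In the respiratory chain, complex I takes electrons from NADH and complex II from succinate. Complex III passes them through cytochrome c to complex IV, which reduces oxygen. The proton gradient made on the way drives the ATP synthase. The transcription factors NRF1, GABP (an ETS factor), ERR alpha and YY1 are known to act on many of the nuclear genes. NLRX1 has been reported to bind UQCRC2, a core protein of complex III.

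RefSeq promoter windows (build GRCm38.p6) matched 27 of the 36 genes, which lay on 12 chromosomes. Promoters are shown for Sdhd and Cox8a, the only genes of the 36 that passed the test of 4T1OE against 4T1OE-CTL on the deposited values. They are also shown for Sdha, the catalytic partner of Sdhd, and for Cox5b (-0.50), below which only Ndufa5 (-0.69) stood in that comparison. Each is printed up to the base before the annotated start, for up to 250 bases. A window that runs into another gene stops 30 bases inside it. That was the case for Sdhd, 51 bases from Timm8b, and for Sdha, 76 bases from Ccdc127. Capitals mark the NRF1 core, which lay at 79 bases before the start in Sdhd and at 98, 55 and 10 bases before it in Sdha. The core of Sdhd thus lay inside Timm8b, and the farthest core of Sdha inside Ccdc127.
Sdhd, chr9:50603850-50603930, minus strand: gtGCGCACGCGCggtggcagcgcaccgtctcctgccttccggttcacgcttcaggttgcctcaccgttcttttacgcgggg
Sdha, chr13:74350241-74350346, minus strand: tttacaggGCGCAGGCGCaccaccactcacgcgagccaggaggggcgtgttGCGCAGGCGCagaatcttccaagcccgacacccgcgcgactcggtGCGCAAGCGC
Cox8a, chr19:7217617-7217866, minus strand: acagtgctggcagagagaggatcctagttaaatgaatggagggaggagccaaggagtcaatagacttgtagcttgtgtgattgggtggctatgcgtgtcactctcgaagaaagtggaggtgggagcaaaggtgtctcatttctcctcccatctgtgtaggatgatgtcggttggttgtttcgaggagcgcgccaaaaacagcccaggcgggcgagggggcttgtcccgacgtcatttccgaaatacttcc
Cox5b, chr1:36691237-36691486, plus strand: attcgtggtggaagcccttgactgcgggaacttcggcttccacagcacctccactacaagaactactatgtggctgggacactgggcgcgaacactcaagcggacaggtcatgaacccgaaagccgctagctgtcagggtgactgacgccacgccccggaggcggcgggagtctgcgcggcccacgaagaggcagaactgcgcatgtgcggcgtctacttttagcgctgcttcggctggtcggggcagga

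Motifs were searched on both strands in the 250 bases before the start, in the first listed window of each gene. These bases were not cut at other genes. They overlapped another gene for 8 of the 27 (29.6%), against 30.1% of all genes and 22.3% of the protein-coding ones. The NRF1 core (GCGCA, any 1 base, then GCGC) was present in 5 of the 27 genes (18.5%), against 3.86% of 27025 genes with a window and 5.3% of the 17491 protein-coding ones. The 5 were Sdhd, Sdha, Cox6a1, Ndufa8 and Ndufa5. Cox8a and Cox5b had none in this window. The ETS core CCGGAAGT, the ERR site TCAAGGTCA and the YY1 core AAGATGGC were in none of the 27, against 2.93%, 0.366% and 1.59% of all genes. With the 50 bases after the start included, the YY1 core stood in 4 of 27 (14.8%, against 2.88%), the ETS core in 2 of 27 (7.41%, against 4%) and the NRF1 core in 6 of 27 (22.2%, against 4.78%). The ERR site then stood in 1 of 27 (3.7%, against 0.407%), in Sdhd. The ETS core shares no full match with the NRF1 core, and a match is a run of letters, not a site shown to be used. The median GC content was 58%, against 52% for all genes and 55.2% for the protein-coding ones.

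The arrays differed in the spread of their values, and the 36 genes moved with it. All values are on the log2 scale of the deposited table. The standard deviation over all features of an array was 2.53 on the narrowest and 3.12 on the widest array. For each array, the median over the 36 genes of the value minus that gene's own median over 12 arrays is called the deviation. On the parental arrays it was -0.49 and 0.23 in WT hosts and -1.26 and 0.06 in Nlrx1-/- hosts, replicate 1 first here and below. On the 4T1OE-CTL arrays it was -0.33 and 0.23 in WT hosts and -0.07 and -0.06 in Nlrx1-/- hosts. On the 4T1OE arrays it was 0.34 and -0.10 in WT hosts and 0.10 and 0.29 in Nlrx1-/- hosts. Both replicates of WT hosts lay on opposite sides of 0 in each of the 3 lines. The 5 arrays with a standard deviation under 3 were all below 0, and of the other 7 arrays 6 were above it. After quantile normalization, which gives every array the same distribution, 3 of the 5 and 4 of the 7 were on those sides, and the deviation ran from -0.53 to 0.23.

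**Figure D1:**
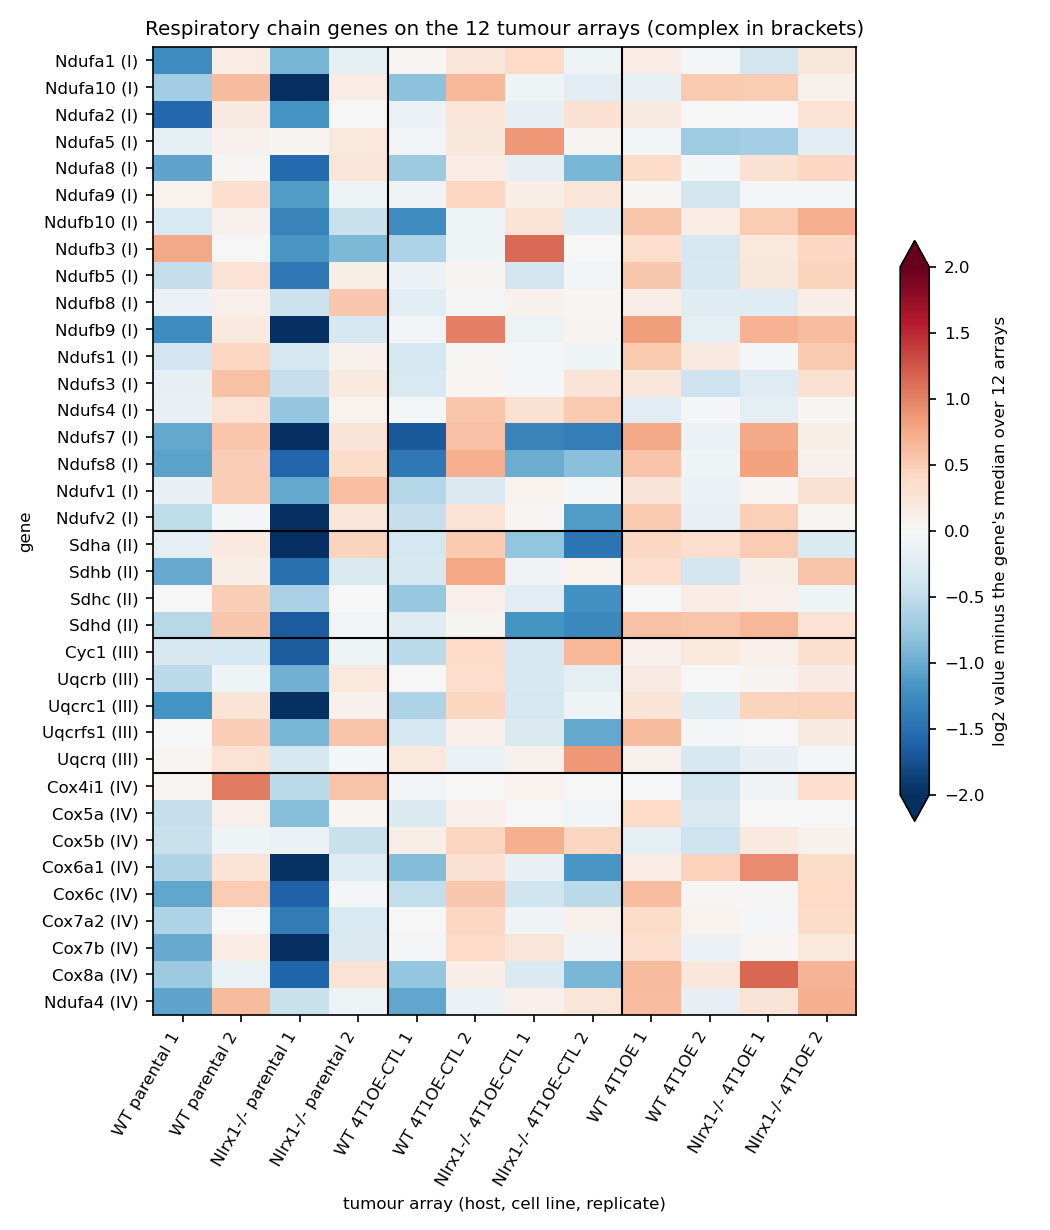
Colour gives the log2 value of each of the 36 genes minus its median over 12 arrays, with arrays in columns by cell line and host and genes in rows by complex. Nlrx1-/- parental replicate 1 is the bluest column, holding the lowest of the 12 values for 28 of 36 genes, Ndufs7 and Ndufs8 are blue on 3 of the 4 4T1OE-CTL columns, and Sdha and Sdhd on both Nlrx1-/- ones of that line.

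**Figure D2:**
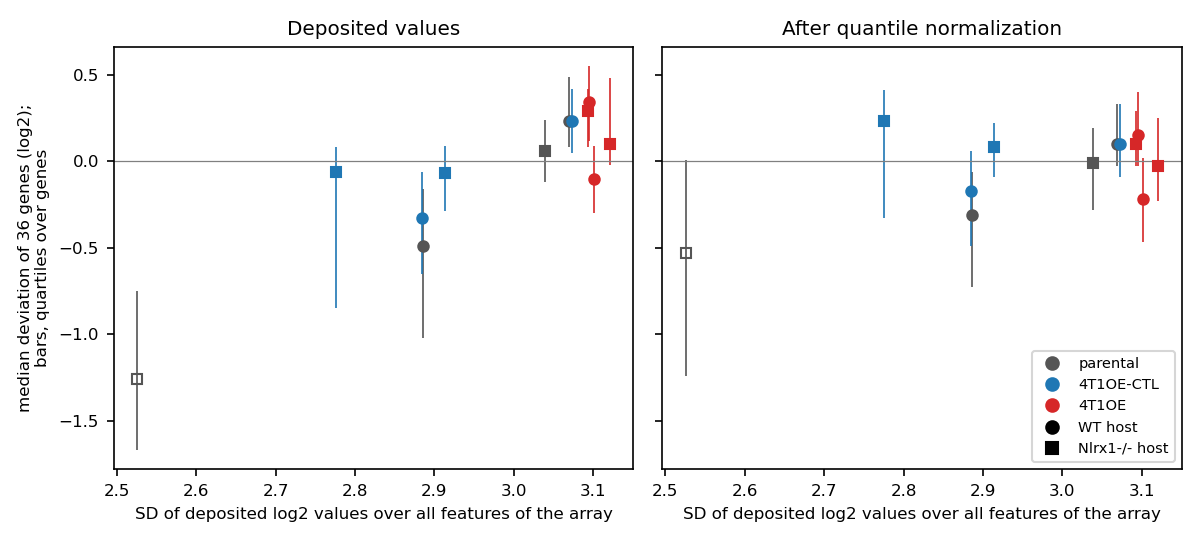
Each point is 1 array, with the standard deviation of its deposited log2 values on the x axis and the median deviation of the 36 genes on the y axis (bars, quartiles over genes; open square, the array left out of the fits). On the deposited values the 5 arrays with a standard deviation under 3 lie between -1.26 and -0.06, whereas after quantile normalization the 2 Nlrx1-/- 4T1OE-CTL arrays lie at 0.08 and 0.23.

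The extremes were not spread evenly over arrays. Nlrx1-/- parental replicate 1, with the smallest standard deviation, held the lowest value of 28 of the 36 genes. Among the 11 fitted arrays, WT parental replicate 1 held the lowest value of 15 genes, Nlrx1-/- 4T1OE-CTL replicate 2 of 7 and WT 4T1OE-CTL replicate 1 of 6. The highest value fell on WT 4T1OE-CTL replicate 2 for 9 genes and on WT 4T1OE replicate 1 for 7. The complexes stood farthest apart on Nlrx1-/- 4T1OE-CTL replicate 2, where complex II was at -1.25, complex I at -0.04, complex III at -0.08 and complex IV at -0.05. On replicate 1 of that group complex II was at -0.50 and complex I at 0.01. The median standard deviation within a group was 0.438 for the 36 genes, from 0.192 for Ndufb8 to 0.939 for Ndufs7, and 0.337 for all features. Ndufb8 was under the 95th percentile of the negative control features on all 12 arrays, and Ndufs7 on 8.

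Many values were not well above background. Of 432 values, 116 lay under the 95th percentile of their array's negative control features, and 16 genes did so on at least 1 fitted array. Of the 432, 4 lay under their array's median of the negative control features, 1 of them on a fitted array (Ndufb10 on WT 4T1OE-CTL replicate 1). On all fitted arrays 20 genes exceeded that percentile, and 4 genes (Ndufb3, Ndufb8, Ndufb10 and Cyc1) stayed under it on every array, so no size of a difference is given for them. A difference against a group that lay under the percentile on all its arrays is given as a bound, from the brighter mean to that percentile. Nlrx1 itself, which checks the label of the overexpressing line, was 9.98 ± 0.555 (SD, n = 4) in 4T1OE tumours. It was 6.59 ± 0.497 (n = 4) in 4T1OE-CTL and 6.62 ± 0.497 (n = 3) in parental tumours. The fitted difference of 4T1OE from 4T1OE-CTL was 3.39 (adjusted p = 0.00227), and that of Nlrx1-/- from WT hosts was -0.07. Nlrx1 was under the control percentile on 8 of the 12 arrays, all those of 4T1OE-CTL and parental tumours. Both differences are therefore uncertain in size, and no bound was computed for Nlrx1.

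Tumours of 4T1OE were compared with those of 4T1OE-CTL, transduced lines that differ in NLRX1 overexpression. Sdhd, a membrane anchor of succinate dehydrogenase (complex II), and Cox8a, the ubiquitous form of a small subunit of cytochrome c oxidase (complex IV), rose, and no gene of the 36 fell. These were 2 of 36 genes (5.56%). Over all features 4.73% were called in either direction, 3.69% higher and 1.04% lower. The share of the 36 that rose is close to the share of all features that did. Before adjustment, p was under 0.05 for 11 of the 36 genes and 5363 features. The median difference of the 36 genes was 0.30, with 26 above 0 (72.2%), against -0.05 and 45.1% over all features. After quantile normalization the median was 0.02 with 19 above 0 (52.8%), against 49.7% of all features. That scaling called 0 of the 36 higher and 2 lower, beside 1.73% of all features higher and 0.937% lower.

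**Figure D3:**
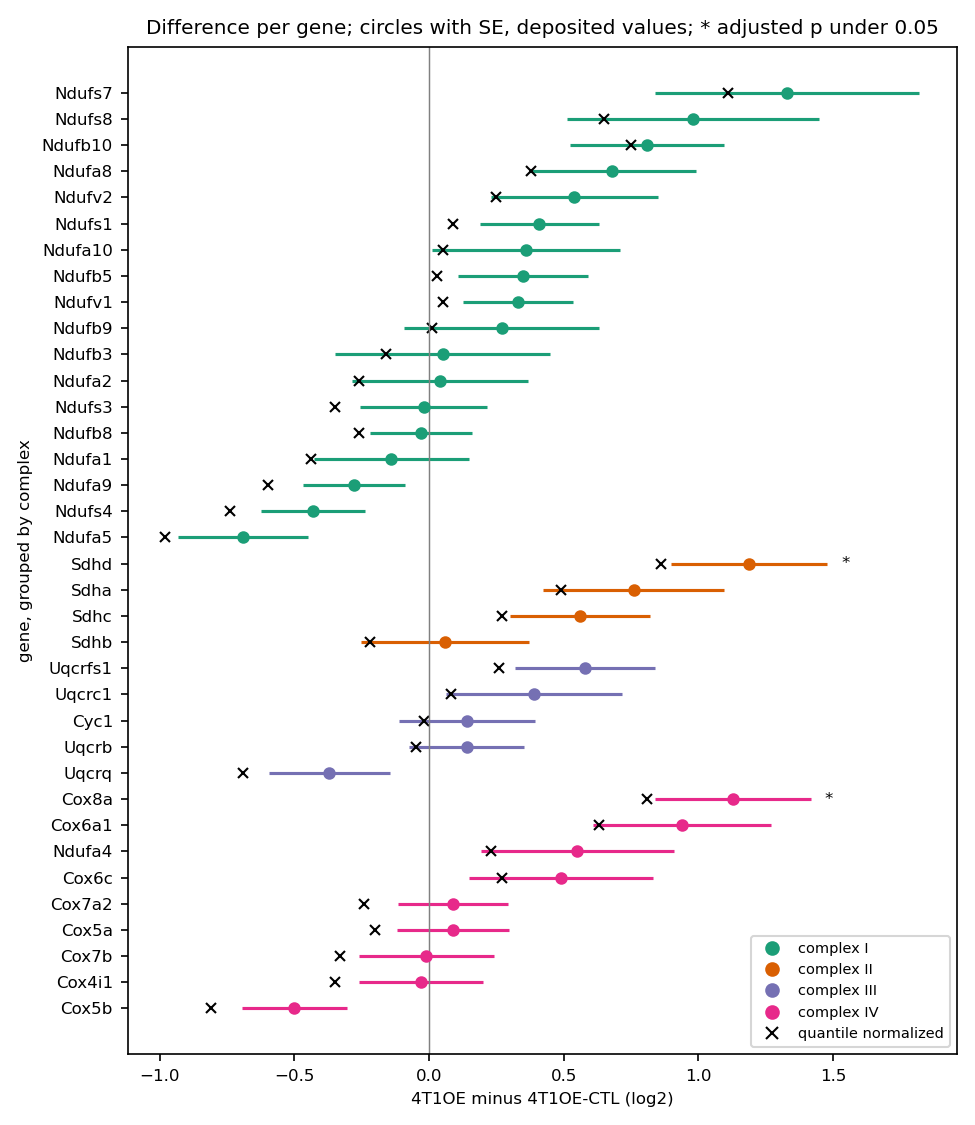
Circles give the fitted difference 4T1OE minus 4T1OE-CTL (log2) of each gene with its standard error on the deposited values, coloured by complex, and crosses the difference after quantile normalization. Sdhd and Cox8a carry the asterisk of an adjusted p under 0.05. Every cross lies to the left of its circle, and on the crosses' scale Ndufa5 (-0.98) and Cox5b (-0.81) passed instead.

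Sdhd showed the clearer separation. It read 10.96 and 10.93 on the WT and 11.04 and 10.66 on the Nlrx1-/- 4T1OE arrays. On the 4T1OE-CTL arrays it read 10.13 and 10.42 in WT and 9.18 and 9.08 in Nlrx1-/- hosts. All 4T1OE arrays were above all 4T1OE-CTL arrays, and the low values were those of Nlrx1-/- hosts. Both of these low values were not well above background, lying under the control percentile of their arrays (9.75 and 9.69), so the size of the fitted difference rests in part on background. Parental arrays read 9.81 and 10.91 in WT and 8.70 and 10.32 in Nlrx1-/- hosts, which overlapped both transduced lines. The mean was 10.89 ± 0.166 (SD, n = 4) in 4T1OE and 9.70 ± 0.674 (n = 4) in 4T1OE-CTL, a difference of 1.19 (SE 0.290, adjusted p = 0.0409). It was 0.86 after quantile normalization, where it did not pass (adjusted p = 0.0711).

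Cox8a read 13.83 and 13.43 in WT and 14.35 and 13.88 in Nlrx1-/- hosts of 4T1OE tumours. In 4T1OE-CTL tumours it read 12.43 and 13.33, then 12.91 and 12.28. The lowest 4T1OE array was just above the highest 4T1OE-CTL array, WT replicate 2, so the lines did not overlap. Parental tumours, at 12.48 and 13.07, then 11.60 and 13.47, overlapped both. The means were 13.87 ± 0.374 (SD, n = 4) and 12.74 ± 0.479 (n = 4), and the difference was 1.13 (SE 0.289, adjusted p = 0.0470), or 0.81 after quantile normalization (adjusted p = 0.0823).

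Both calls depended on single arrays. Leaving out any 1 of the 4 4T1OE arrays, WT 4T1OE-CTL replicate 1 or either Nlrx1-/- 4T1OE-CTL array left 0 of the 36 higher. Without WT parental replicate 2 only Sdhd was higher. Without WT 4T1OE-CTL replicate 2, 6 genes were higher: Sdhd (1.37), Cox8a (1.41), Ndufs7 (1.89), Ndufs8 (1.5), Cox6a1 (1.23) and Sdha (1.07). Of these, Ndufs7, Ndufs8 and Sdha were under the control percentile on all the remaining 4T1OE-CTL arrays, so their sizes are uncertain. The standard deviation of the array's values was 3.09 to 3.12 on the 4T1OE arrays and under 3 on 3 of the 4 4T1OE-CTL arrays. Without the arrays under 3, Sdhd differed by 0.61 and Cox8a by 0.31, with adjusted p = 0.589 and 0.817. That fit was chosen after seeing the data, and its single 4T1OE-CTL array, WT replicate 2, was assumed to vary like the other groups.

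Marker RNA of other cell types moved with the same comparison. Of 11 macrophage markers, 6 rose in 4T1OE against 4T1OE-CTL, and 4 did after quantile normalization. Their median deviation was 0.42 to 0.88 on the 4T1OE and -1.66 to -0.11 on the 4T1OE-CTL arrays. Of 7 endothelial markers 3 rose, or 1 after quantile normalization. In RNA of a whole tumour, fewer cells of a type and less RNA per cell cannot be told apart, and the part of these cells in the differences of the 36 genes was not tested.

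Complex I, the NADH dehydrogenase, had a median difference of 0.30 for 4T1OE against 4T1OE-CTL, with 12 of 18 genes above 0 and none called, and 0.02 after quantile normalization. Before adjustment 5 of the 18 had p under 0.05. Ndufs7, a core iron-sulphur subunit, had the largest difference of all 36 genes and also the widest spread between replicates. It read 9.18 and 8.30 in WT and 9.17 and 8.54 in Nlrx1-/- hosts of 4T1OE tumours. In 4T1OE-CTL tumours it read 6.74 and 9.01, then 7.09 and 7.05. WT replicate 2 of 4T1OE-CTL lay among the 4T1OE arrays, and the other 3 were lower and not well above background. Ndufs7 was under the control percentile on 8 of the 12 arrays, so its fitted difference is uncertain in size. The difference was 1.33 (SE 0.491, adjusted p = 0.130). Parental arrays read 7.39 and 8.98, then 5.82 and 8.68, and the 12-array range of 3.36 was among the 3 widest.

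At the other end of complex I stood Ndufa5 and Ndufs4. Ndufa5, an accessory subunit, read 8.96 and 8.30 in WT and 8.33 and 8.78 in Nlrx1-/- hosts of 4T1OE tumours, against 8.96 and 9.23, then 9.88 and 9.06, in 4T1OE-CTL tumours. The lines touched at 8.96, and all other 4T1OE arrays were lower. The difference was -0.69 (SE 0.241, adjusted p = 0.115). It was -0.98 after quantile normalization, where Ndufa5 fell (adjusted p = 0.0463). Ndufa5 was under the control percentile on 7 of the 12 arrays, so its fitted difference is uncertain in size. Ndufs4, an accessory subunit whose loss impairs complex I, read 9.35 and 9.54, then 9.39 and 9.60, in 4T1OE and 9.53 and 10.12, then 9.87 and 10.10, in 4T1OE-CTL tumours. Its difference was -0.43 (adjusted p = 0.196) and -0.74 after quantile normalization (adjusted p = 0.0564).

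The remaining genes of complex I lay between these. Ndufb10, a membrane-arm accessory subunit, was not well above background on either side (adjusted p = 0.120). Ndufb9, another membrane-arm subunit, had the widest range over 12 arrays, 3.52, from 12.18 on Nlrx1-/- parental replicate 1 to 15.70 on WT 4T1OE-CTL replicate 2, and a difference of 0.27. Ndufs1 (range 0.91), Ndufb8 (0.97) and Ndufs3 (1.05) had the 3 narrowest ranges of the 36. Ndufs1 and Ndufs3 are core subunits, and their differences were 0.41 and -0.02. Ndufb8 is an accessory subunit, and its narrow range was read on values not well above background on any array. The differences of Ndufs8, Ndufa8, Ndufv2, Ndufa10, Ndufb5, Ndufv1 and Ndufa2 ran from 0.98 down to 0.04, and those of Ndufa1 and Ndufa9 were -0.14 and -0.28. Neither these 9 nor Ndufb3 passed. Ndufs8 and Ndufa1 were under the control percentile on every 4T1OE-CTL array but WT replicate 2, so their fitted differences are uncertain in size.

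All 4 genes of complex II, succinate dehydrogenase, were above 0, with a median of 0.66, or 0.38 after quantile normalization, where Sdhb was below 0. Beside Sdhd, the flavoprotein Sdha read 9.14 and 9.06, then 9.23 and 8.44, in 4T1OE tumours. In 4T1OE-CTL tumours it read 8.38 and 9.25, then 7.94 and 7.26. The lines overlapped through WT 4T1OE-CTL replicate 2, and the difference was 0.76 (SE 0.337, adjusted p = 0.196). Sdhc, the other membrane anchor, read 9.18 and 9.32, then 9.28 and 9.09, in 4T1OE and 8.41 and 9.27, then 8.97 and 7.97, in 4T1OE-CTL tumours, a difference of 0.56 (SE 0.259, adjusted p = 0.208). Sdha and Sdhc were under the control percentile on every 4T1OE-CTL array but WT replicate 2. Their fitted differences and the median of complex II are therefore uncertain in size. Sdhb, the iron-sulphur subunit, differed by 0.06 (SE 0.313), or -0.22 after quantile normalization. The highest Sdhb value, 12.27, was on WT 4T1OE-CTL replicate 2. For Sdha, Sdhc and Sdhd the lowest fitted array was Nlrx1-/- 4T1OE-CTL replicate 2, on which skeletal muscle markers had a median deviation of 2.26. Skeletal muscle markers were also raised on WT 4T1OE replicate 1 (3.44), where complex II was at 0.38, and on WT 4T1OE-CTL replicate 1 (1.75), where it was at -0.33. The part of muscle in these values was not tested.

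Complex III, the cytochrome bc1 complex, had a median difference of 0.14, or -0.02 after quantile normalization, and no call among 5 genes. The Rieske iron-sulphur protein Uqcrfs1 differed by 0.58 (SE 0.259, adjusted p = 0.196). Uqcrfs1 was under the control percentile on every 4T1OE-CTL array but WT replicate 2, so this size is uncertain. Uqcrc1, a core protein, differed by 0.39 (SE 0.326), and had a range of 3.41 that came from Nlrx1-/- parental replicate 1, at 7.62, since the 11 fitted arrays spanned 1.65. Uqcrb differed by 0.14, and its 11 fitted values stayed within 0.87. Uqcrq, a small subunit, differed by -0.37 (adjusted p = 0.339), and Cyc1, cytochrome c1, was not well above background on either side (adjusted p = 0.762). Uqcrc2, which was not among the 36 genes, read 8.32 and 8.35, then 8.55 and 8.42, in 4T1OE tumours and 7.67 and 8.27, then 7.53 and 7.16, in 4T1OE-CTL tumours. The lines did not overlap, but Uqcrc2 was under the control percentile on all 12 arrays, so no size is given for it. Its difference did not pass (adjusted p = 0.0796, or 0.153 after quantile normalization).

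Complex IV, cytochrome c oxidase, had a median difference of 0.09, with 6 of 9 genes above 0, and -0.20 after quantile normalization with 4 of 9 above 0. Beside Cox8a, Cox6a1 differed by 0.94 (SE 0.331, adjusted p = 0.116). At the other end, Cox5b, the zinc-binding subunit, read 12.89 and 12.65, then 13.26 and 13.15, in 4T1OE and 13.18 and 13.49, then 13.78 and 13.50, in 4T1OE-CTL tumours. Within each host the 4T1OE arrays were below the 4T1OE-CTL arrays, though the lines overlapped across hosts. The difference was -0.50 (SE 0.194, adjusted p = 0.147). After quantile normalization Cox5b fell by 0.81 (adjusted p = 0.0472). Ndufa4 and Cox6c differed by 0.55 and 0.49, Cox7a2 and Cox5a both by 0.09, Cox7b by -0.01 and Cox4i1 by -0.03, and none passed.

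**Figure D4:**
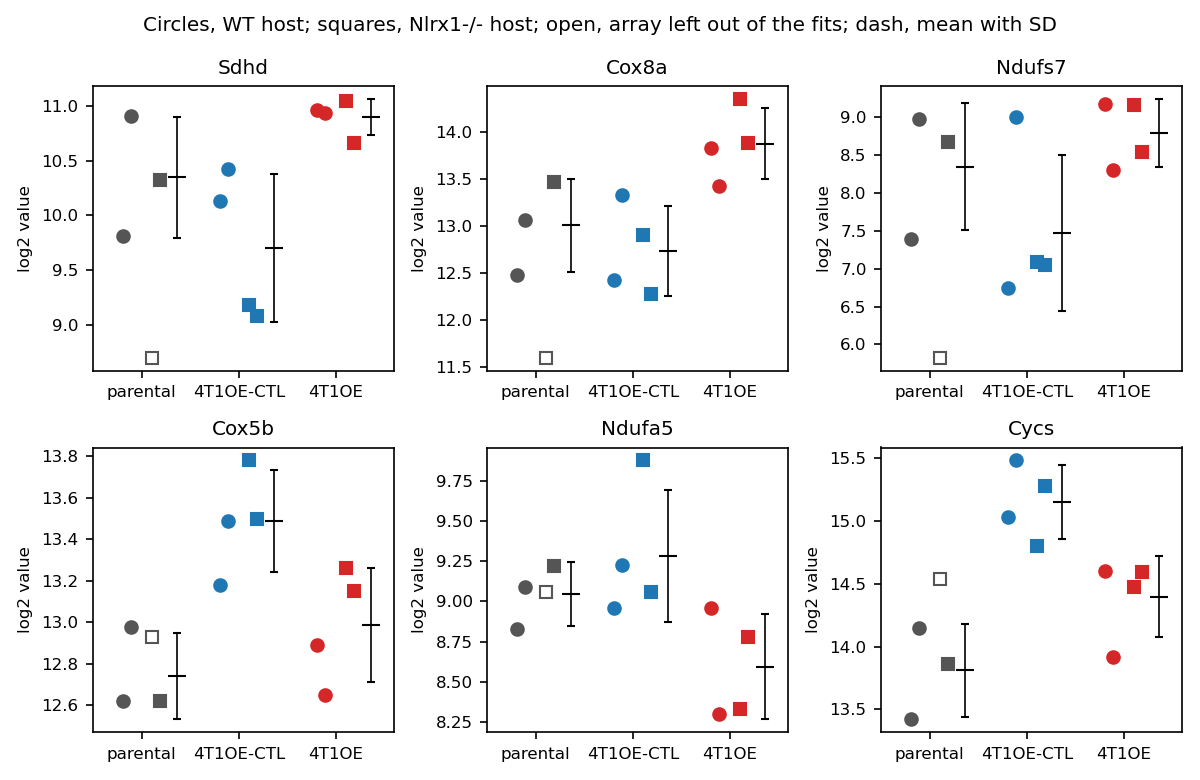
Each panel plots the log2 value (y axis) of 1 gene on the 12 arrays by cell line (x axis), with circles for WT and squares for Nlrx1-/- hosts and a dash with bars for the mean and SD of the fitted arrays. Sdhd and Cox8a do not overlap between 4T1OE-CTL and 4T1OE, Ndufs7 has 1 high 4T1OE-CTL array at 9.01, and Cox5b and Cycs are highest in 4T1OE-CTL.

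Some complex IV subunits exist as a ubiquitous and a muscle isoform, and both were read on every array. Cox6a1, Cox7a2 and Cox8a are the ubiquitous forms, Cox6a2, Cox7a1 and Cox8b those of heart and skeletal muscle. All 3 muscle forms lay under the 95th percentile of the negative controls on all 12 arrays. Cox8b was also under the median of those controls on 11 arrays, with the exception of WT 4T1OE replicate 1 (5.72), the array with the highest skeletal muscle markers (3.44). There Cox8a read 13.83, and on the other 2 arrays with muscle markers above 1, WT 4T1OE-CTL replicate 1 (1.75) and Nlrx1-/- 4T1OE-CTL replicate 2 (2.26), it read 12.43 and 12.28. Without these 3 arrays the difference of Cox8a was 0.70 (adjusted p = 0.515) and that of Sdhd 1.14 (adjusted p = 0.364), a fit chosen after seeing the data. No muscle isoform passed in any of the 7 comparisons.

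**Figure D5:**
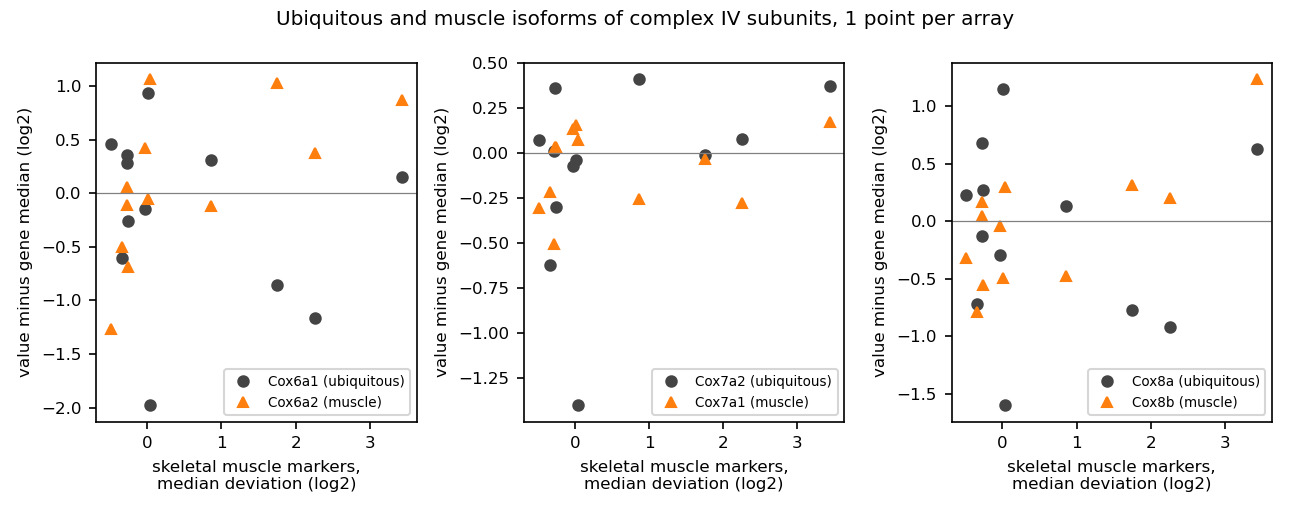
Each panel sets the values of a ubiquitous (circles) and a muscle isoform (triangles) of 1 complex IV subunit, as log2 value minus the gene's median over 12 arrays, against the median deviation of skeletal muscle markers on the same array. Cox8b is highest on the array with the highest muscle markers, WT 4T1OE replicate 1, while Cox6a1 and Cox8a lie low on the 2 4T1OE-CTL arrays with markers at 1.75 and 2.26.

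The effect of overexpression was also read within each host. In Nlrx1-/- hosts the 36 genes had a median difference of 0.33 with 27 above 0, and in WT hosts 0.19 with 25 above 0. After quantile normalization the first became -0.09 with 17 above 0 and the second 0.03 with 18 above 0. No gene of the 36 was called in either host, where 1.19% and 0.0135% of all features were. Before adjustment p was under 0.05 for 6 genes in Nlrx1-/- and 1 in WT hosts, against 4611 and 1793 features. Sdhd came nearest. In Nlrx1-/- hosts its means were 10.85 in 4T1OE and 9.13 in 4T1OE-CTL tumours, a difference of at least 1.13 (adjusted p = 0.0525 for the fitted difference), and in WT hosts it differed by 0.67 (adjusted p = 0.689). Cox8a differed by 1.52 (adjusted p = 0.0803) and 0.75 (adjusted p = 0.678). Ndufs7 differed by 0.87 in WT hosts, and in Nlrx1-/- hosts, with means of 8.86 and 7.07, it has no bound above 0. At the lower end were Ndufa5, Uqcrq at -0.58 and Ndufs4 at -0.49 in Nlrx1-/- hosts, and Cox5b at -0.56, Ndufa5 at -0.46 and Ndufs4 at -0.38 in WT hosts. In Nlrx1-/- hosts Ndufa5 was under the control percentile on both 4T1OE arrays and on 4T1OE-CTL replicate 2 (9.06, against 9.69). No size or bound is therefore given for it there. Ndufb10, not well above background, Ndufs7 and Ndufa4 (0.80) had the largest fitted differences in WT hosts.

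The difference between hosts was tested itself, as the interaction of line and host. It called 0 of 22206 features (0%), with 726 features and 0 of the 36 genes at p under 0.05 before adjustment. The largest estimates were those of Sdhd (1.05, SE 0.509), Sdha (0.95, SE 0.560) and Ndufs7 (0.92, SE 1.01), and the lowest those of Ndufb3, Ndufa4 (-0.49) and Ndufa5 (-0.45), all with an adjusted p of 0.999. Sdhd, Sdha and Ndufs7 were not well above background on both Nlrx1-/- 4T1OE-CTL arrays, so these estimates are uncertain in size. The median over the 36 was 0.16, or -0.08 after quantile normalization. A larger response in 1 host was therefore not detectable in these arrays.

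Tumours of 4T1OE-CTL were compared with parental tumours, which differ by transduction and by line history. None of the 36 genes passed, where 2.59% of all features did, and 5 genes and 3532 features had p under 0.05 before adjustment. The median difference was -0.10 with 16 above 0, against 0.02 and 52.0% over all features, and 0.02 after quantile normalization. With all 12 arrays it turned to 0.24 with 25 above 0. Cox5b was highest at 0.71 (SE 0.212, adjusted p = 0.110, or 0.0504 after quantile normalization). Its parental arrays read 12.62 and 12.98, then 12.93 and 12.62, all below the lowest 4T1OE-CTL value of 13.18. Ndufb9 (0.68) and Ndufa1 (0.56), a small accessory subunit needed for complex I assembly, followed. Ndufa1 was under the control percentile on 8 of the 12 arrays, so its difference is uncertain in size. The lowest were Ndufs7 at -0.86, Uqcrfs1 at -0.71 and Sdhc at -0.64, with adjusted p of 0.490, 0.241 and 0.291. Each of these was under the control percentile on every 4T1OE-CTL array but WT replicate 2, so the sizes are uncertain. Of 10 epithelial markers 6 fell in 4T1OE-CTL, or 7 after quantile normalization. Their median deviation was -1.68 to 0.52 on the 4T1OE-CTL and 1.09 to 2.48 on the fitted parental arrays, and their part in these differences was not tested.

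Tumours of 4T1OE against parental tumours gave a median of 0.30 with 26 of 36 genes above 0, against -0.03 and 46.7% over all features, and 0.16 with 24 above 0 after quantile normalization. With all 12 arrays it was 0.63 with 31 above 0. This comparison shares the 4T1OE arrays with the comparison against 4T1OE-CTL. None of the 36 passed, where 1.33% of all features did, and 4 genes and 3073 features had p under 0.05 before adjustment. Ndufb9 (0.95, adjusted p = 0.305), Cox8a (0.83, adjusted p = 0.254) and Cox6a1 (0.68, adjusted p = 0.438) were highest. Cox4i1, the main form of the subunit 4 of cytochrome c oxidase, was lowest at -0.60 (SE 0.250, adjusted p = 0.311), followed by Ndufa5 at -0.48, Ndufs3 at -0.26 and Ndufb8. Cox4i1 read 12.74 and 12.36, then 12.67 and 13.07, in 4T1OE tumours. It read 12.77 and 13.78, then 12.19 and 13.30, in parental tumours, so the array left out of the fit was the lowest of these. Of 10 epithelial markers 5 fell, on either scale, and so did 3 of 6 fibroblast markers. Epithelial markers had a median deviation of -0.64 to 0.07 on the 4T1OE and 1.09 to 2.48 on the fitted parental arrays, and fibroblast markers -1.18 to -0.13 and 0.49 to 2.33. Their part in the differences of the 36 genes was not tested.

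Host genotype was compared over the 3 lines. In Nlrx1-/- hosts, replicate 1 of every line was rich in B cell markers. Their median deviation there was 2.18 in parental, 3.73 in 4T1OE and 4.85 in 4T1OE-CTL tumours, and above 1 on no other array. T cell markers were raised on the same arrays (2.01, 2.39 and 3.83) and on WT 4T1OE-CTL replicate 2 (1.27). The part of these cells in the host differences was not tested. No feature passed (0% of 22206), while 955 features and 0 of the 36 genes had p under 0.05 before adjustment in the limma fit. The 36 genes had a median difference, Nlrx1-/- minus WT, of 0.07 with 24 above 0, against 0.00 and 50.7% over all features. With all 12 arrays it was -0.10 with 9 above 0, so the array left out of the fit turned the sign of this median. Ndufa4 (0.41), Ndufv1 (0.32), the NADH-binding core subunit, and Ndufb10 were highest. The lowest were all of complex II, with Sdhd at -0.48 (SE 0.251), Sdha at -0.45 (SE 0.292) and Sdhc at -0.22 (SE 0.224). Every adjusted p was 1.0. Sdhd, Sdha and Sdhc were under the control percentile on both Nlrx1-/- 4T1OE-CTL arrays, so these sizes are uncertain. The deviation of complex II in 4T1OE-CTL tumours was -0.33 and 0.31 in WT, then -0.50 and -1.25 in Nlrx1-/- hosts. In 4T1OE tumours it was 0.38 and 0.24, then 0.31 and 0.10. In parental tumours it was -0.38 and 0.34, then -1.58 (not fitted) and -0.02.

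The other genes of the pathway were read from lists for 4T1OE against 4T1OE-CTL. Beside them, 3.69% of all features rose and 45.1% were above 0 (1.73% and 49.7% after quantile normalization). Of 18 ATP synthase genes 16 were above 0 with a median of 0.39, or 11 with 0.21 after quantile normalization, and 2 rose. Both encode the c subunit of the membrane ring: Atp5g1 by 1.25 (SE 0.296, adjusted p = 0.0379) and Atp5g3 by 1.02 (SE 0.239, adjusted p = 0.0358). Atp5d had the highest difference (1.27) without passing. Atp5e, under the control percentile on 11 of the 12 arrays, had the lowest, and no size is given for it. Of 24 further subunits of complexes I, III and IV, 2 rose: Cox7a2l, a supercomplex factor, by 1.25 (adjusted p = 0.0430), and Ndufa11 (adjusted p = 0.0394). Ndufa11 was under the control percentile on 10 of the 12 arrays, all of 4T1OE-CTL among them, so no size is given for it. Ndufb4 had the lowest difference of these subunits, -0.57. After quantile normalization none of these 4 passed, with adjusted p of 0.0540 to 0.131. None of 42 assembly factors, 11 regulators of mitochondrial biogenesis or 8 tissue isoforms passed on the deposited values, with 8, 3 and 0 of them at p under 0.05 before adjustment. Their highest and lowest differences were those of Cox15 (1.05) and Ndufaf2, Gabpb1 (0.87) and Pprc1, and Cox7a1 and Cox6b2. Ndufaf2, Pprc1, Cox7a1 and Cox6b2 were under the control percentile on all 12 arrays, so no size is given for them. After quantile normalization Ndufaf2, a complex I assembly factor, was called lower (adjusted p = 0.0440), a call on values not well above background. The 13 genes encoded by mitochondrial DNA were not analysed here.

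Among the 3 electron carriers measured, Cycs, the somatic cytochrome c, changed with the control line. It read 15.03 and 15.48 in WT and 14.80 and 15.28 in Nlrx1-/- hosts of 4T1OE-CTL tumours. In parental tumours it read 13.42 and 14.15, then 14.54 and 13.86, and in 4T1OE tumours 14.60 and 13.92, then 14.47 and 14.59. All 4T1OE-CTL arrays were above all others. Cycs rose by 1.33 in 4T1OE-CTL against parental tumours (SE 0.264, adjusted p = 0.0218), and by 1.41 after quantile normalization (adjusted p = 0.00853). Its difference between 4T1OE and 4T1OE-CTL was -0.75 (adjusted p = 0.0941), and -1.06 after quantile normalization, where it passed (adjusted p = 0.0296). Etfdh, which feeds electrons from fatty acid oxidation to ubiquinone, ran the other way, at -0.80 in 4T1OE-CTL against parental and 0.84 in 4T1OE against 4T1OE-CTL tumours, without passing. Those 2 comparisons share the 4T1OE-CTL arrays. In the other lists the highest and lowest differences of 4T1OE-CTL from parental tumours were Atp5mpl (0.46) and Usmg5 (-0.75), Ndufs5 (0.48) and Cox7a2l (-1.19), and Cox17 (0.57) and Cox15 (-0.97). For regulators and tissue isoforms they were Pprc1 and Gabpb1 (-0.47), and Cox6a2 and Cox8c. None of these genes passed. Pprc1, Cox6a2 and Cox8c were under the control percentile on all 12 arrays, so no size is given for them.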

How the data were processed

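Values were the log2 expression values deposited by the authors, 1 per transcript cluster and array, for 12 tumour arrays; the manufacturer's control column held no values. Per the submitters' processing notes the Transcriptome Analysis Console was used (no version given); background correction and normalization are not given in the sources used here, and no genome build is named with the values. Of 28846 features, 6640 controls were removed. Gene symbols came from the platform annotation: 19572 of 22206 features had 1 symbol and 2634 none.

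limma 3.58.1 under R 4.3.3 (lmFit, eBayes, two-sided) was run on all 22206 features and 11 arrays, with Benjamini-Hochberg adjustment over all of them and a threshold of 0.05. Host and line were additive for 4 comparisons; 1 mean per group gave 3 (within each host and the interaction). The fit was tested on simulated data. The precision is limited by the number of arrays.

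The members and lists were chosen with earlier results of these data known. The named genes were those that passed, the 3 highest and 3 lowest differences of each comparison, the 3 widest and 3 narrowest ranges, all of complexes II and III, the isoform pairs, each list's passing genes and extremes, Uqcrc2 and Nlrx1. Same-numbered replicates did not consistently deviate together over all features, though replicate 1 of every line in Nlrx1-/- hosts was rich in B cell markers. The alternative settings are given in the closing section. Tables and figures used Python 3.11.15, pandas 2.3.3 and matplotlib 3.10.9.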

Additional observations from a re-analysis of the deposited data

Results flagged for a closer look

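Of 88 groups of 4 arrays examined, 4 had an array that stood apart from the other 3 beyond Dixon's critical value of 0.829, which chance gives in about 1 of 20 groups. On WT 4T1OE-CTL replicate 2, Ndufs7 read 9.01, against 6.74 to 7.09 on the other 4T1OE-CTL arrays. On the same array Ndufb9 read 15.70, against 14.59 to 14.75, and Cox6c read 16.32, against 15.23 to 15.37. That array had a standard deviation of its values of 3.07, whereas the other 3 of its line were under 3; the part of this in the 3 genes was not tested. Ndufa9 read 9.61 on WT 4T1OE replicate 2, against 9.95 to 9.99 on the other 4T1OE arrays.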

How the results depend on the processing

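For 4T1OE against 4T1OE-CTL, the number of the 36 genes called higher was 2 on the deposited values. It was 0 with all 12 arrays, quantile normalization, median and MAD scaling, a covariate for the standard deviation of each array, and, all chosen after seeing the data, without arrays with a standard deviation under 3, without arrays rich in muscle or in B cell markers, or with quantile normalization and a replicate block. It was 1 with the replicate block (Sdhd, with Cox8a at adjusted p = 0.0591) and with 1 mean per group, and 0 to 6 with single arrays left out. The number called lower, 0, was 2 with quantile normalization and 1 with median and MAD scaling (Cox5b, -0.98). The median difference became -0.21 with that covariate and -0.12 without arrays under 3. In Nlrx1-/- hosts it became -0.09 with quantile normalization, with or without the block, -0.19 with median and MAD scaling and -0.47 with the covariate. In WT hosts it was -0.17 with the covariate and -0.15 to 0.63 with single arrays left out. For the interaction it was -0.28 with the covariate. With all 12 arrays the median was 0.24 for 4T1OE-CTL and 0.63 for 4T1OE against parental. In Nlrx1-/- hosts 1 gene (Sdhd) was called higher without the dimmest features, with array weights, and 0 to 1 with single arrays left out. The cause of these shifts was not tested. The replicate numbers showed no consistent pairing of the samples (correlations of deviations -0.309 to 0.371 over 10 pairs of groups with 2 fitted arrays). With the array left out of the fits included, they ran from -0.309 to 0.608 over 15 pairs. A shared batch is not excluded by this. Within Nlrx1-/- hosts, replicate 1 of every line was rich in B cell markers (median deviation 2.18, 3.73 and 4.85 in parental, 4T1OE and 4T1OE-CTL tumours). The block only gives a second reading, and it changed no other call on the 36 genes. Averaging several features of a gene was not run, since each gene had 1. Among the 36 genes, signal over background limits the 4 under the 95th percentile of the negative controls on every array. It also limits the 8 others, Sdhd and Ndufs7 among them, that were under it on all arrays of 1 line in Nlrx1-/- hosts. Outside the 36 it limits Uqcrc2, Ndufaf2, Pprc1, Cox7a1, Cox6b2, Cox6a2 and Cox8c on every array, and Ndufa11, Atp5e and Nlrx1 on most arrays.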
